A study of Mus musculus with 8 samples.

Results

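Imprinted genes were measured in Thy1-positive cells from the testes of mouse pups, where 4 samples of wild type (WT) animals were set against 4 samples labelled Glis3KO2. A list of 35 mouse imprinted genes was matched to the array through RefSeq accessions. H19 and Rtl1 had no matched probe, and the other 33 genes, read by 59 of 41174 probes, were all among the 17513 genes tested. Every one of these 33 passed the filter on dim probes (detected above background on 4 or more of 8 arrays), and 32 were well above background on all 8 arrays. Zim1 was so on 3 of 4 WT arrays and on all Glis3KO2 arrays.

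Both groups were C57BL/6 pups at postnatal day 4 that stayed with their mothers and received no treatment. The WT group is labelled wild type and the other group carries the genotype label Glis3KO2, for which the labels give no allele structure, no deleting driver and no statement on whether the loss was in all cells. GLIS3 is a zinc-finger transcription factor, and the series title places it in spermatogenesis. Thy1 is a surface protein by which spermatogonial stem and progenitor cells are enriched, and the submitters call the cell type testis spermatogonial progenitor cells. The design text speaks of 3 testes per genotype while 4 samples per genotype are labelled. Separate animals are not stated for the replicates, and a p-value therefore rests on differences among samples that may be technical copies.

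An imprinted gene is transcribed mainly from the copy inherited from one parent, because DNA methylation laid down in the egg or the sperm marks that copy at an imprinting control region. In the male germ line these marks are erased in the fetal primordial germ cells, after which paternal-pattern methylation is laid down in prospermatogonia before birth. Somatic cells of the testis keep both parental patterns. Many imprinted genes belong to a network of growth regulators that is active in fetal and newborn tissues. These arrays read total RNA of a gene and cannot tell the parental copies apart, so no value here measures imprinting itself.

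Windows from 250 bases before to 50 bases after a start are shown for members on which the results turn. They are from RefSeq (GRCm38.p6), each printed 5′ to 3′ on its own strand. For Igf2 and Grb10 the start was chosen, as stated below, so contrasts among the windows rest in part on that choice. Capitals mark the hexamer TGCCGC on either strand (GCGGCA on the other), which is the core of the methylated site bound by ZFP57, the zinc-finger protein that protects imprints. The first 4 are the members that followed the stroma markers most closely, and the last 2 are the antisense transcripts whose WT and Glis3KO2 values did not overlap. Plagl1 lies at chr10:13090582-13090881 on the plus strand, Grb10 (first start) at chr11:12037371-12037670 on the minus strand, Igf2 (second start) at chr7:142661222-142661521 on the minus strand and Slc38a4 (first start) at chr15:97055907-97056206 on the minus strand. Airn lies at chr17:12741061-12741360 on the plus strand and Kcnq1ot1 at chr7:143296498-143296797 on the minus strand.
Plagl1: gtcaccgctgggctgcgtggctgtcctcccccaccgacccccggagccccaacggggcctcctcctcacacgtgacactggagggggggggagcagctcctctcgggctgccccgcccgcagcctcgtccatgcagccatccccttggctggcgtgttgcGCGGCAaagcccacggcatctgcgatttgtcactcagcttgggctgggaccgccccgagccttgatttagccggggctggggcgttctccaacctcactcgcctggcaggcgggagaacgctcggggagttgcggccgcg
Grb10: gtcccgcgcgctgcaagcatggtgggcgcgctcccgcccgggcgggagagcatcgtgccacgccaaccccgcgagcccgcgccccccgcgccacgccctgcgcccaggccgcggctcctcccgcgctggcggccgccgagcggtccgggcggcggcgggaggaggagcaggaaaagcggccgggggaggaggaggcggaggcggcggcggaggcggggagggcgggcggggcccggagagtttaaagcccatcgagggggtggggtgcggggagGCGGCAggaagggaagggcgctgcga
Igf2: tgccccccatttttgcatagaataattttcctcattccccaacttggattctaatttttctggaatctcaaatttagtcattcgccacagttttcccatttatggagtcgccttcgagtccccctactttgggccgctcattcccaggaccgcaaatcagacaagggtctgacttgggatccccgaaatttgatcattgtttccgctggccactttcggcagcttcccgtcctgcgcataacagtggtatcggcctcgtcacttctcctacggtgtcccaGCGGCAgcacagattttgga
Slc38a4: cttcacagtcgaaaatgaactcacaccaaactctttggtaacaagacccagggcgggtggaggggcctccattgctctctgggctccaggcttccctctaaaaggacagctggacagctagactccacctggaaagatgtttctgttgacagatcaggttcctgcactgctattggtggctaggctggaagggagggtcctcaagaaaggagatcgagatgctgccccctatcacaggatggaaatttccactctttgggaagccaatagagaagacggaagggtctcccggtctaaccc
Airn: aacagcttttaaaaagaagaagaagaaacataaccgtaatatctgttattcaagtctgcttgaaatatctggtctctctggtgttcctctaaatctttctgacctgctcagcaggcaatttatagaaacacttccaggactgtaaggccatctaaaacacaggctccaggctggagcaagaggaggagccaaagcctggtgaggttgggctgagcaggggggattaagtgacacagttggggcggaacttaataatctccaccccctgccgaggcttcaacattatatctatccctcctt
Kcnq1ot1: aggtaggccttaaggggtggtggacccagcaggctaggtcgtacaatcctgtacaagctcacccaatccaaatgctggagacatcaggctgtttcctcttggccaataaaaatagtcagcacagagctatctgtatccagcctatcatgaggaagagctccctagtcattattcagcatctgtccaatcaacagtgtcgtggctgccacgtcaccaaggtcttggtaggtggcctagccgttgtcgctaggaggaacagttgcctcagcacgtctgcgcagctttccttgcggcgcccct

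The Grb10 window held 45 CpG pairs and the Plagl1 window 26, against 14 in Igf2, 9 in Kcnq1ot1, 5 in Slc38a4 and 3 in Airn. The hexamer stood once each in the Plagl1, Grb10 and Igf2 windows and in none of the other 3. The Igf2 and Grb10 windows were printed because they hold it: the other 3 Igf2 starts held 0 hexamers, with 2, 24 and 7 CpG pairs, and the other Grb10 start held 0, with 9 CpG pairs. Promoter windows were counted for 28 members, 44 windows in all. Of these, 10 (22.7%) had the hexamer, in 9 members, beside 11.6% of all 32851 windows. The median number of CpG pairs was 12.5 in the member windows and 7 over all windows. Member windows on the chromosome of Impact were left out of these figures, while the windows of all genes kept that chromosome. A match is a description of letters, and a window without one says nothing about ZFP57 there. The windows of Peg3 and Usp29, at chr7:6730370-6730669 on the minus strand and chr7:6730333-6730632 on the plus strand, overlapped, as these neighbours start head to head.

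Values are the log2 of the processed signal minus the array's own 75th percentile, so that 0 is the signal below which 75% of spots of that array lie. They compare arrays for 1 probe and do not rank genes. The 75th percentile itself ran from 243.2 to 532.7 in WT and from 251.5 to 458.2 in Glis3KO2, and between 86.0% and 90.3% of spots were well above background. Glis3 was 1.43 lower in Glis3KO2 (SE 0.45, limma, adjusted p = 0.697), with every Glis3KO2 array (-2.18 to -1.18) below every WT array (-1.09 to 0.60); the labels do not say which part is deleted, so this probe does not test the deletion. Thy1 was 0.65 higher (SE 0.44, adjusted p = 0.713). WT replicates 3 and 4 stood apart from the other arrays on the first principal component (69.1 and 60.0 against at most 3.85), which held 32.3% of the variance. Each slide held 2 arrays of each genotype (replicates 1 and 3, replicates 2 and 4). WT replicates 1 and 2 sat at position 1 and WT replicates 3 and 4 at position 2. Glis3KO2 replicates 1 and 2 sat at position 3 and Glis3KO2 replicates 3 and 4 at position 4. Position and genotype therefore cannot be told apart, nor can position and the split of WT replicates 3 and 4 from the other WT arrays.

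The labelled cell type was checked against its markers. Of 28 germ cell markers, 27 were well above background on all 8 arrays, and so were 28 of 30 stroma markers, all 10 peritubular and smooth muscle markers, all 16 macrophage markers and all 13 Sertoli markers. Since 16105 of all 17513 genes were detected in this way, these counts do not tell which cells the RNA came from. The germ cell marker mean (each gene centred over the arrays) reached 0.80 in WT replicate 3 and 1.13 in WT replicate 4, and lay between -0.68 and -0.08 on the other 6 arrays. Ddx4, a germ cell RNA helicase, was 3.48 and 4.17 on those 2 arrays and 1.80 to 2.22 on the rest. The stroma marker mean was -0.41, 0.76, -0.92 and -1.03 in WT and 0.18, 1.44, 0.11 and -0.13 in Glis3KO2, in the order of replicates 1 to 4. In each genotype replicate 2 was thus highest in stroma markers. Col1a1, a fibrillar collagen chain, was 1.41 higher in Glis3KO2 (SE 0.61), Pdgfra, a receptor of interstitial progenitors, 0.91 (SE 0.41) and Acta2, smooth muscle actin, 0.76 (SE 0.34), each at an adjusted p of 0.697 in limma. Dazl, a germ cell marker, differed by -0.31 (SE 0.47) and Sox9, a Sertoli marker, by -0.24 (SE 0.55). Cyp11a1, a Leydig marker, differed by -0.5 (SE 0.64) and Pecam1, an endothelial marker, by -0.32 (SE 0.36). In bulk RNA, fewer cells of a type and less RNA per cell cannot be told apart.

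Between genotypes no gene of the 17513, and so no imprinted gene, reached an adjusted p under 0.05 in limma (0%; smallest adjusted p 0.0675 over all genes and 0.697 among the members). At an unadjusted p under 0.05, 3 members were higher in Glis3KO2 (Airn, Plagl1 and Slc38a4) and 0 were lower. The background over all genes was 6.9% in either direction, 2.15% higher and 4.75% lower. The means of 23 members were higher in Glis3KO2 and those of 10 lower, with a median difference of 0.27, while 40.8% of all genes had a higher mean and the median of all genes was -0.08. With the replicate number as a block, 7 members had an unadjusted p under 0.05, all higher (Airn, Dlk1, Grb10, Igf2, Meg3, Plagl1 and Slc38a4). Of all 17513 genes 10.7% had one, 769 higher and 1108 lower, and the smallest adjusted p of a member was 0.422. In other settings the direction was mixed. With the slide as a block 2 members were higher (Airn and Slc38a4) and 1 lower (Magel2), beside 388 higher and 819 lower genes. The mean over a gene's probes gave 2 higher (Airn and Plagl1) and 2 lower (Asb4 and Magel2), beside 381 and 881 genes. Without WT replicates 3 and 4 the median difference was 0.14. There 1 member, Airn, kept an unadjusted p under 0.05, beside 4.4% of all genes. Stroma markers moved with this result: 28 of 30 had a higher mean in Glis3KO2 (median 0.90, range of their mean -1.03 to 0.76 in WT and -0.13 to 1.44 in Glis3KO2) and 26 of 28 germ cell markers a lower one (median -0.80). All 10 peritubular and smooth muscle markers (median 0.97, range of their mean -1.16 to 0.57 in WT and -0.63 to 1.25 in Glis3KO2) and 14 of 16 macrophage markers (median 0.31, range -0.99 to 0.75 and -0.32 to 0.85) also had higher means. The remaining somatic lists were mixed in direction. Lower means were held by 7 of 8 Leydig markers (median -0.50), 10 of 13 Sertoli markers (-0.27) and 7 of 12 endothelial markers (-0.01). Of 8 T lymphocyte markers 6 had higher means (median 0.10). The part of any of these lists in the members' differences was not tested.

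**Figure D1:**
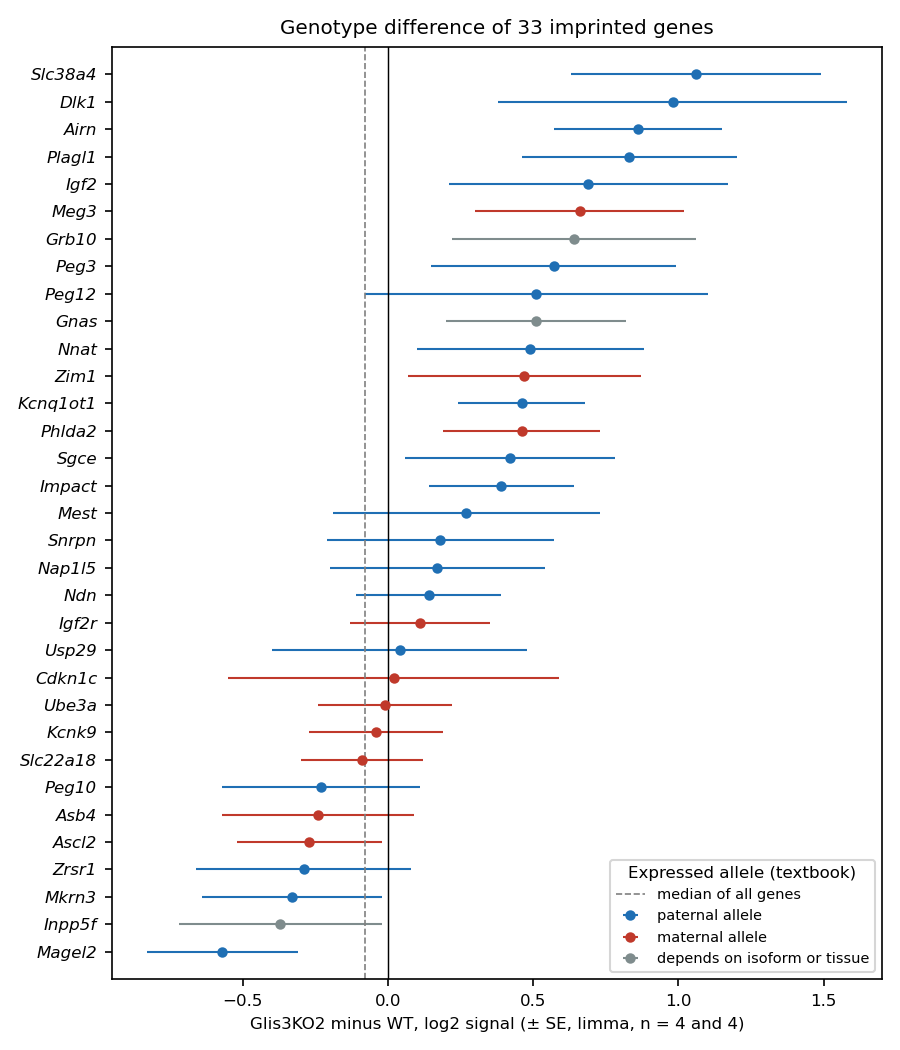
Difference of each of 33 imprinted genes on the log2 scale, Glis3KO2 minus WT, with its limma standard error (4 arrays per genotype), coloured by the parental allele usually expressed; the dashed line is the median of all genes. Slc38a4 (1.06) is at the top and Magel2 (-0.57) at the bottom, and 23 points lie above 0.

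The members were grouped by the parental copy usually listed as expressed. Whether that copy is the one expressed in these cells was not measured. Among 20 paternally expressed genes, 16 had a higher mean in Glis3KO2 and 4 a lower one, with a median of 0.40, and all 3 members at an unadjusted p under 0.05 were among them. Of 10 genes listed as maternally expressed 5 were higher and 5 lower, with a median of 0. Grb10, Gnas and Inpp5f, listed apart as depending on the tissue or isoform, differed by 0.64, 0.51 and -0.37. Whether paternally and maternally expressed genes differed from each other was not tested.

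Plagl1 (also called Zac1), a zinc-finger transcription factor that regulates other imprinted genes, was 5.02, 6.10, 4.93 and 4.41 in WT replicates 1 to 4 and 5.52, 6.57, 5.85 and 5.86 in the Glis3KO2 replicates. Each Glis3KO2 array was above the WT array of its number, but WT replicate 2 was above 3 of the Glis3KO2 arrays, so the groups overlapped. The difference was 0.83 (SE 0.37, limma, unadjusted p = 0.0493, adjusted p = 0.697), and 0.98 by its other probe. It was 0.71 on slide 1 and 0.96 on slide 2, 0.48 between replicates 1 and 2 and 1.19 between replicates 3 and 4. With the replicate block the unadjusted p was 0.0122 (adjusted 0.422), and without WT replicates 3 and 4 the difference was 0.39.

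Slc38a4, a neutral and cationic amino acid transporter important in the placenta, was -0.04, 1.09, -0.40 and -0.98 in WT and 0.97, 1.59, 0.48 and 0.86 in Glis3KO2. Only WT replicate 2 reached into the Glis3KO2 range. The difference was 1.06 (SE 0.43, limma, unadjusted p = 0.032, adjusted p = 0.697), the largest among the members on the probe of highest mean. A second Slc38a4 probe, also well above background on all arrays, differed by 0.09, so the probes disagreed. Without WT replicates 3 and 4 the first probe's difference was 0.45.

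The imprinted antisense transcripts were the members whose groups did not overlap. Across all genes 0.902% had groups apart with Glis3KO2 higher and 2.6% with Glis3KO2 lower, while among the members the counts were 2 and 0. Airn, a long noncoding RNA transcribed through Igf2r in the opposite direction from the paternal copy, was -3.67, -2.78, -2.78 and -2.95 in WT and -2.11, -2.26, -1.74 and -2.64 in Glis3KO2. It differed by 0.86 (SE 0.29, limma, unadjusted p = 0.0137, adjusted p = 0.697) and by 1.04 without WT replicates 3 and 4. Airn is dim, and its difference was -0.05 with normexp background correction and scaling to the 75th percentile, but 0.40 with normexp and quantile normalization, so the direction turned under 1 of the normexp settings. Igf2r, the receptor that clears IGF2 and is silenced in cis by Airn on the paternal copy, differed by 0.11 (SE 0.24), between 3.65 and 4.09 in WT and between 3.54 and 4.32 in Glis3KO2.

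Kcnq1ot1, the noncoding RNA that silences its own imprinted domain on the paternal copy, was -0.03, 0.02, -0.33 and 0.00 in WT and 0.20, 0.12, 0.69 and 0.47 in Glis3KO2. The lowest Glis3KO2 array stood 0.10 above WT replicate 2, the WT array of the same number. The difference was 0.46 (SE 0.22, limma, unadjusted p = 0.0652, adjusted p = 0.697) on the probe of highest mean. Kcnq1ot1 had 6 probes, of which 3 differed by 0.39 to 0.46 and 3 by -0.20 to -0.17, and the mean over the probes differed by 0.13. The sources used here do not state whether these probes read only the antisense strand. The maternally expressed genes of its domain did not share a direction. Phlda2, a placental growth inhibitor, differed by 0.46 (SE 0.27), Cdkn1c, a cyclin-dependent kinase inhibitor, by 0.02 (SE 0.57), Slc22a18, a transporter-like protein, by -0.09 (SE 0.21) and Ascl2, a basic helix-loop-helix factor of trophoblast and intestinal stem cells, by -0.27 (SE 0.25). Cdkn1c reached 1.65 in Glis3KO2 replicate 2 and 1.02 in WT replicate 2 and lay between -0.77 and -0.23 on the other 6 arrays.

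**Figure D2:**
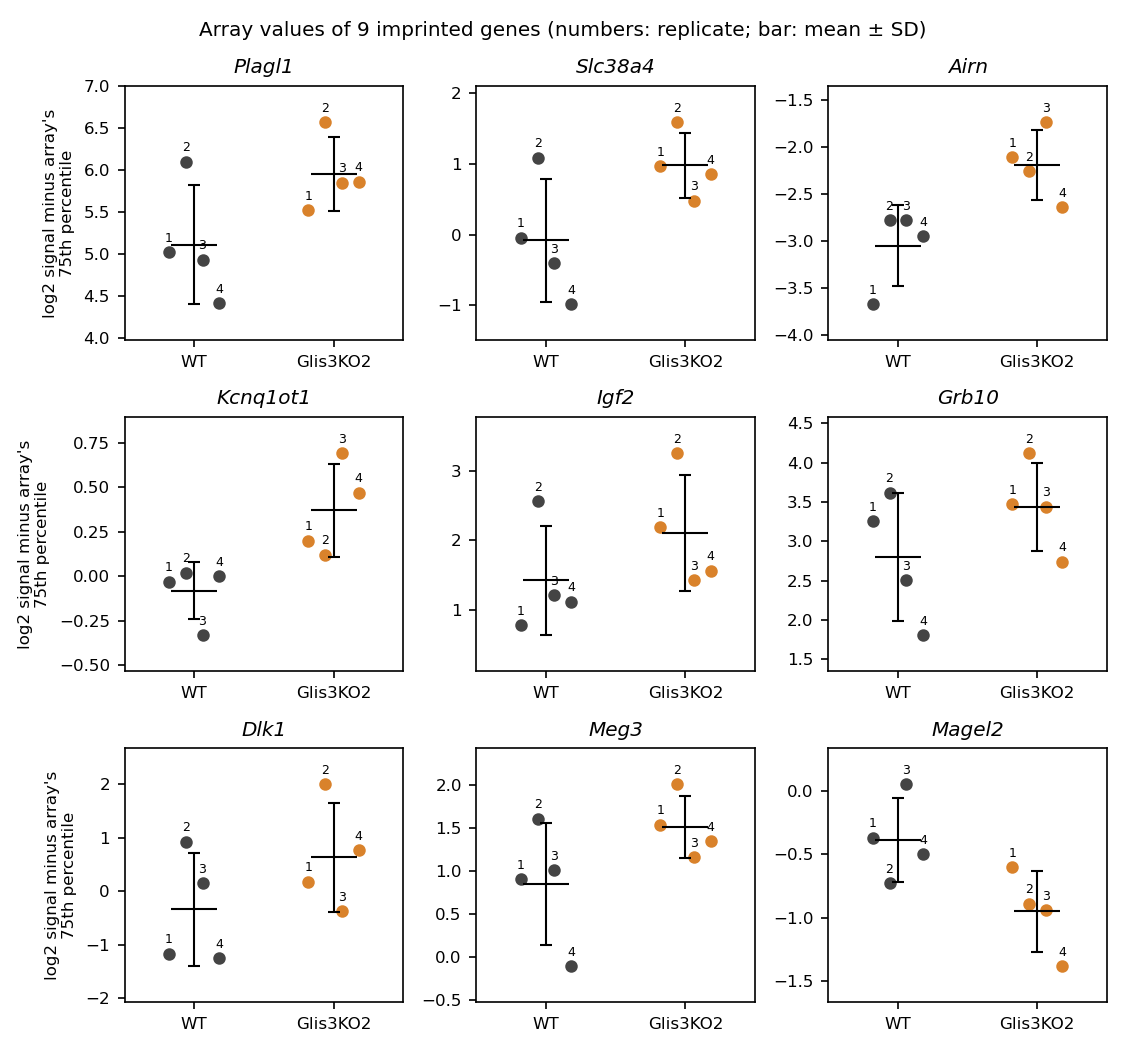
Log2 signal minus the array's 75th percentile for 9 imprinted genes, 1 point per array with its replicate number, and the mean ± SD (n = 4 per genotype). The groups are apart for Airn and Kcnq1ot1 and overlap for the other 7, where WT replicate 2 is often the highest WT array.

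Igf2 and Grb10 had overlapping groups. Igf2, the fetal growth factor of the insulin family, was 0.77, 2.57, 1.21 and 1.11 in WT and 2.19, 3.26, 1.42 and 1.56 in Glis3KO2. The spread within a genotype (SD 0.79 and 0.84) was larger than the difference of 0.69 (SE 0.48, limma, adjusted p = 0.717). Grb10, an adaptor that restrains insulin and IGF receptor signalling, was 3.26, 3.62, 2.51 and 1.81 in WT and 3.47, 4.12, 3.44 and 2.74 in Glis3KO2, a difference of 0.64 (SE 0.42, adjusted p = 0.708) that ran from 0.64 to 1.01 over its 3 probes. Grb10 was higher in 4 of 4 same-numbered pairs, by 0.21, 0.50, 0.94 and 0.93, by 0.35 between replicates 1 and 2, and had an unadjusted p of 0.0253 (adjusted 0.444, limma) with the replicate block. Without WT replicates 3 and 4, which also breaks those pairs, its difference was 0.0042. The Igf2 difference was 0.44 without them, 0.309 without Glis3KO2 replicate 2 and 1.08 without WT replicate 2.

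Dlk1 and Meg3 are neighbours of opposite parental expression, a paternally expressed Notch-like transmembrane protein of progenitor cells and a maternally expressed noncoding RNA. Dlk1 was -1.17, 0.93, 0.15 and -1.25 in WT and 0.18, 2, -0.37 and 0.77 in Glis3KO2. Its difference of 0.98 (SE 0.60, limma, adjusted p = 0.698) was under the within-group SDs of 1.06 and 1.02. Meg3 was 0.90, 1.61, 1.01 and -0.11 in WT and 1.54, 2.01, 1.16 and 1.35 in Glis3KO2, a difference of 0.66 (SE 0.36, adjusted p = 0.697), with 5 probes between 0.45 and 0.66. Both genes of the pair were thus higher on average in Glis3KO2, Meg3 in 4 of 4 same-numbered pairs and Dlk1 in 3. Without WT replicates 3 and 4 the differences were 0.26 for Meg3 and 0.765 for Dlk1.

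At the Peg3 cluster the neighbours differed in size. Peg3, a large zinc-finger protein expressed from the paternal copy, was 3.85, 4.14, 2.70 and 2.24 in WT and 3.64, 4.26, 3.59 and 3.73 in Glis3KO2. The Glis3KO2 arrays spread little (SD 0.31) and the WT arrays fell into 2 higher and 2 lower ones (SD 0.91). The difference was 0.57 (SE 0.42, limma, adjusted p = 0.725), and it was -0.19 without WT replicates 3 and 4, the 2 lower arrays. Usp29, which starts head to head with Peg3 in the overlapping windows given above, differed by 0.04 (SE 0.44), and the dim maternally expressed zinc-finger gene Zim1 by 0.47 (SE 0.40). In the cluster of Peg10, Sgce and Asb4, Peg10, a retrotransposon-derived placental gene, differed by -0.23 (SE 0.34). Sgce, epsilon-sarcoglycan, differed by 0.42 (SE 0.36) and Asb4, a subunit of ubiquitin ligases, by -0.24 (SE 0.33). A second Asb4 probe, well above background on 5 arrays, differed by -2.17.

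The Snrpn to Ube3a domain, whose human counterpart is affected in Prader-Willi and Angelman syndromes, held the member with the lowest difference. Magel2, a MAGE-family regulator of a ubiquitin ligase, was -0.37, -0.73, 0.05 and -0.50 in WT and -0.60, -0.89, -0.94 and -1.38 in Glis3KO2. It was lower in Glis3KO2 in 4 of 4 same-numbered pairs, by 0.16 to 0.99, although the groups overlapped at WT replicate 2. The difference was -0.57 (SE 0.26, limma, unadjusted p = 0.0516, adjusted p = 0.697), and -0.40 without WT replicates 3 and 4. Ndn, the related MAGE protein necdin, differed by 0.14 (SE 0.25), Mkrn3, a zinc-finger ubiquitin ligase known for restraining puberty, by -0.33 (SE 0.31), and Peg12 by 0.51 (SE 0.59). Snrpn, a splicing ribonucleoprotein subunit, differed by 0.18 (SE 0.39) and Ube3a, the ubiquitin ligase of Angelman syndrome, by -0.01 (SE 0.23), with its other probe at 0.31. In the domain 3 members were higher on average and 3 lower.

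The remaining members stand alone in the genome or were taken singly here. Mest, a hydrolase-like protein of mesoderm, differed by 0.27 (SE 0.46) and Nnat, a small membrane proteolipid, by 0.49 (SE 0.39). Gnas, the stimulatory G protein locus, differed by 0.51 (SE 0.31), but its 3 probes gave 0.51, 0.05 and -0.29 and may read different transcripts of the locus. Impact, a regulator of translation under amino acid shortage, differed by 0.39 (SE 0.25) and was higher in 4 of 4 pairs. Nap1l5 differed by 0.17 (SE 0.37), Kcnk9, a potassium channel, by -0.04 (SE 0.23), Zrsr1, a splicing factor related to U2AF, by -0.29 (SE 0.37) and Inpp5f, an inositol phosphatase, by -0.37 (SE 0.35). Inpp5f reached -0.24 in WT replicate 3 and 0.32 in WT replicate 4, and lay between -1.30 and -0.84 on the other 6 arrays.

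The levels of the members were then set beside the stroma and germ cell markers of the same arrays. Over 8 arrays, 22 of 33 members had a Pearson r above 0 with the stroma marker mean, with a median r of 0.44, while 40.2% of all 17507 genes were above 0 and their median was -0.19. At an exact two-sided permutation p under 0.05, unadjusted, 12 members followed the stroma markers, against 7.93% of all genes, and 1 member, Ascl2, ran against them, against 15.0% of all genes. None of these held after Benjamini-Hochberg adjustment over all genes, where 0 of 17507 genes did, although 4018 had an unadjusted p under 0.05. In all 66 member relations were computed. The levels share the array's scaling and RNA sample, and no member was in the marker lists.

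Plagl1 was the closest, with r = 0.94 (exact permutation p = 0.000595, 0.0613 adjusted over all genes), rho = 0.90 (p = 0.00456) and r = 0.87 without the 2 arrays farthest from the median, Glis3KO2 replicate 2 and WT replicate 4. Slc38a4 had r = 0.93 (exact permutation p = 0.000719, adjusted 0.0665), rho = 0.98 (p = 0.000397) and r = 0.89 without those arrays. The relation held inside the genotypes: r of the deviations from the genotype mean was 0.92 for each of them, with exact permutation p = 0.0174 and 0.00868. Igf2 had r = 0.91 (exact permutation p = 0.00156, adjusted 0.0699), rho = 0.90 (p = 0.00456), 0.82 without the 2 farthest arrays and 0.89 within genotypes. Grb10 had r = 0.91 (exact permutation p = 0.00228, adjusted 0.0752), rho = 0.98 (p = 0.000397), 0.83 without the 2 farthest arrays and 0.88 within genotypes. These 4 genes, a transcription factor, a transporter, a growth factor and a signalling adaptor, thus tracked the stroma markers from array to array. On the 6 arrays other than WT replicates 3 and 4 their r was 0.89, 0.88, 0.95 and 0.85.

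**Figure D3:**
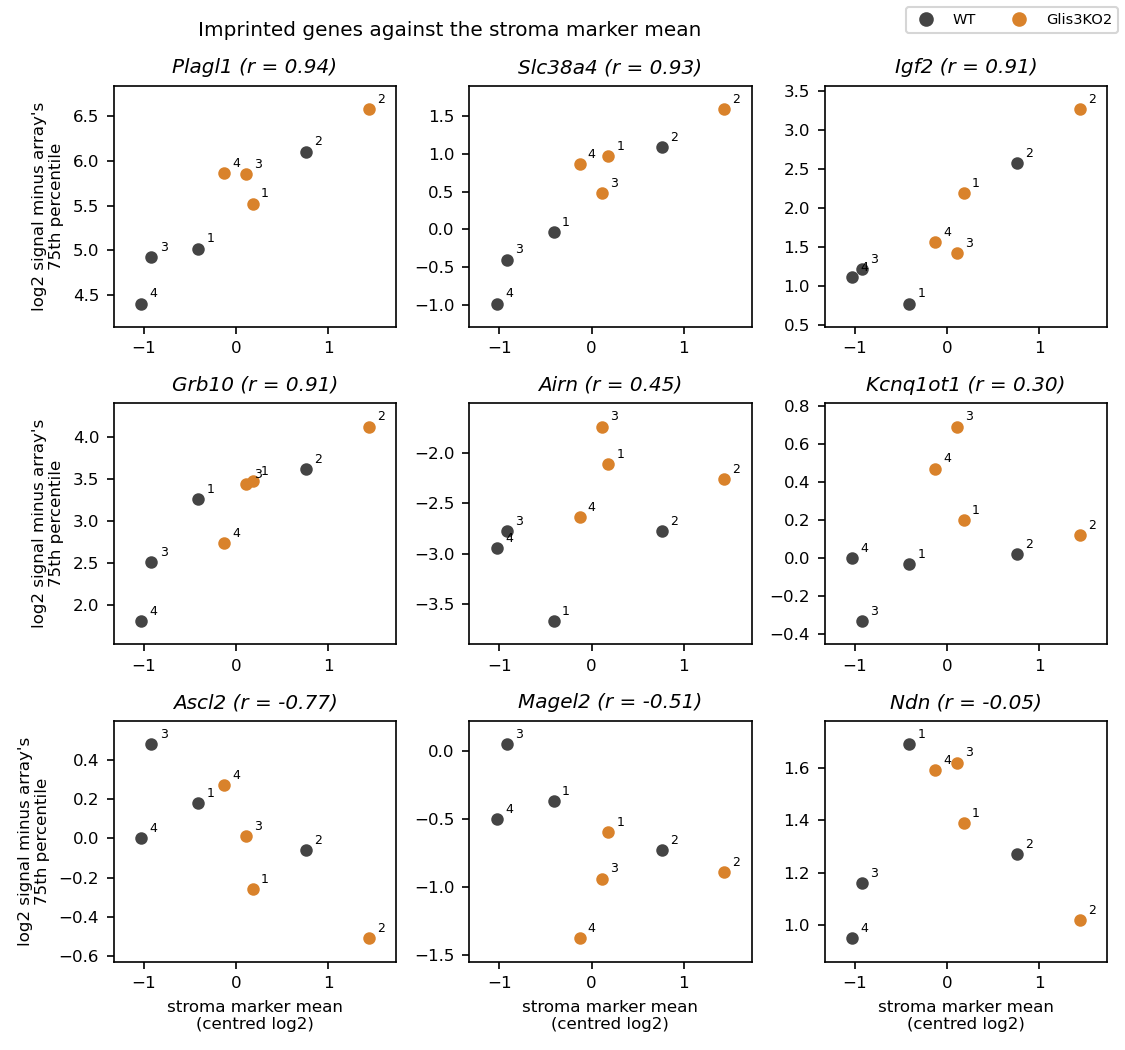
Log2 signal minus the array's 75th percentile of 9 imprinted genes against the mean centred log2 level of 30 stroma markers, 1 point per array, coloured by genotype and numbered by replicate, with Pearson's r. Plagl1 (0.94), Slc38a4 (0.93), Igf2 and Grb10 (0.91 each) climb with the marker mean, Ascl2 (-0.77) descends, and Airn (0.45), Kcnq1ot1 (0.30) and Ndn (-0.05) show no such line.

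The other 8 members that followed the stroma markers were Meg3 and Peg3 (r = 0.86 each), Gnas (0.85), Dlk1 (0.81), Cdkn1c (0.79), Nnat (0.77), Mest (0.75) and Peg12 (0.73). Their exact permutation p ran from 0.00558 for Meg3 to 0.0376 for Peg12, and from 0.0918 to 0.191 after adjustment over all genes. Without the 2 farthest arrays, 1836 of 17509 genes had an exact permutation p under 0.05 in either direction. Of the members 5 kept it: Meg3, Grb10, Plagl1, Nnat and Slc38a4. The r of Mest was then 0.30, that of Dlk1 0.44 and that of Cdkn1c 0.49, so these 3 rested on those arrays. With deviations from the genotype mean 9 members were at an exact permutation p under 0.05 (Igf2, Peg3, Mest, Meg3, Cdkn1c, Grb10, Plagl1, Gnas and Slc38a4). Of all 17507 genes 2660 were, in either direction. A slide holds 4 arrays, too few for a correlation of its own.

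The antisense transcripts and Magel2 were at no unadjusted p under 0.05 against the stroma markers. The r was 0.45 for Airn (exact permutation p = 0.269, adjusted 0.498), 0.30 for Kcnq1ot1 (p = 0.469, adjusted 0.674) and -0.51 for Magel2 (p = 0.196, adjusted 0.421). Within genotypes it was 0.08, -0.18 and -0.23. Ascl2 had r = -0.77 (exact permutation p = 0.0265, adjusted 0.164), rho = -0.71 (p = 0.0576) and -0.81 without the 2 farthest arrays. Peg10 had r = -0.71 (exact permutation p = 0.0527, adjusted 0.223), and r of -0.45 without them.

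Array brightness moved with the stroma markers. The log2 of the array's 75th percentile had r = 0.78 with the stroma marker mean (exact permutation p = 0.0213), rho = 0.76 (p = 0.0368) and r = 0.74 without the 2 farthest arrays, and the arrays of replicate 2 were the brightest of each genotype. The mean of the 33 members, each centred, was -0.29, 0.25, -0.16 and -0.31 in WT and 0.02, 0.39, 0.06 and 0.04 in Glis3KO2, with r = 0.94 to the stroma marker mean and 0.66 to the brightness. The part of brightness in the members' relation was not tested.

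**Figure D4:**
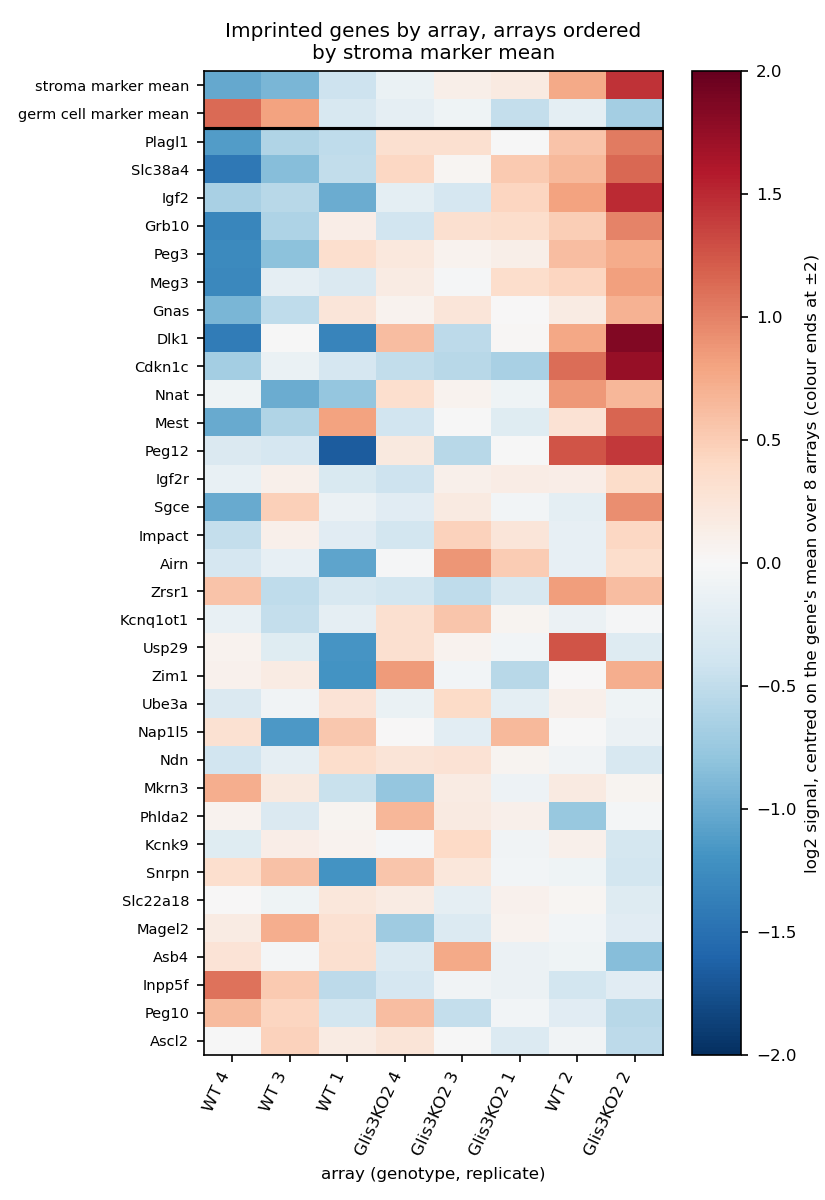
Log2 signal of 33 imprinted genes on 8 arrays, each gene centred on its mean, with the stroma and germ cell marker means in the top rows; arrays are ordered by the stroma marker mean and genes by their r with it. WT replicates 4 and 3 are at the low end and replicate 2 of WT and of Glis3KO2 at the high end, and most of the upper genes are lowest at the left and highest at the right.

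The germ cell markers were then set against the members, on fewer arrays than the stroma markers, so the counts of the 2 are not like for like. As WT replicates 3 and 4 were separate in germ cell markers (0.89 above the next array, where the other 6 spanned 0.59), correlations were taken over the other 6 arrays. There 11 members had r above 0 and 22 below, with a median of -0.28 against -0.02 for all genes. At an exact permutation p under 0.05, 1 member ran with the germ cell markers (background 2.71% of all genes) and 0 against them (background 2.64%), and 0 held after adjustment over all genes. The member was Kcnk9, with r = 0.88 (exact permutation p = 0.0167, adjusted 0.836), rho = 0.83 (p = 0.0583) and r = 0.63 on the 4 arrays left without the 2 farthest. With deviations from the genotype mean on the 6 arrays, Kcnk9 had r = 0.88 (exact permutation p = 0.0625). There the 1 member under 0.05 was Kcnq1ot1 (r = 0.96, p = 0.0417), beside 756 of 17507 genes, and 0 genes held after adjustment. Its r without that centring was 0.51. Germ and stroma marker means over these 6 arrays had r = -0.57 (exact permutation p = 0.228).

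The genes that protect, erase and lay down imprints were described from 2 lists. Among 15 genes of imprint protection and erasure, 8 had a higher and 7 a lower mean in Glis3KO2, and 2 were at an unadjusted p under 0.05, both lower, where 4.75% of all genes were. Groups were apart for 2 lower and 1 higher gene of the list, beside 2.6% and 0.902% of all genes. Dnmt1, the methyltransferase that copies methylation at replication, was -0.10, -0.18, 0.69 and 0.50 in WT and -0.43, -0.37, -0.41 and -0.74 in Glis3KO2. Its difference was -0.71 (SE 0.26, limma, unadjusted p = 0.0207, adjusted p = 0.697). Uhrf1, the protein that brings DNMT1 to hemimethylated DNA, lay between 3.98 and 4.75 in WT and between 3.57 and 3.85 in Glis3KO2, a difference of -0.60 (SE 0.26, unadjusted p = 0.0398, adjusted p = 0.697). Both had groups apart, and in both WT replicates 3 and 4, the arrays with the high germ cell markers, were the highest; the part of these markers was not tested. Tet3, a dioxygenase that oxidises methylcytosine, was higher with groups apart, 2.55 to 2.92 in WT and 3.05 to 3.76 in Glis3KO2 (0.51, SE 0.23, adjusted p = 0.697). Zfp57 itself differed by 0.25 (adjusted p = 0.851), and Zfp445, the other zinc-finger protector of imprints, by 0.71 (SE 0.36).

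Of 9 measured genes that lay down imprints in germ cells, 7 had a lower mean and 2 a higher mean in Glis3KO2, with a median of -0.25, and 1 was at an unadjusted p under 0.05, lower (4.75% of all genes). Kdm1a, a histone lysine demethylase, was 2.70, 0.88, 1.04 and 1.43 in WT and 0.87, 0.68, 0.39 and 0.68 in Glis3KO2, barely apart at WT replicate 2. It differed by -0.85 (SE 0.38, limma, unadjusted p = 0.0468, adjusted p = 0.697). Kdm1b, its paralogue needed for maternal imprints, differed by -0.61 (SE 0.35). The methyltransferases Dnmt3a and Dnmt3b differed by -0.14 (SE 0.20) and -0.47 (SE 0.43), and Dnmt3l, their germ line cofactor, by -0.25.

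Imprinted genes outside the list of 35 were described in the same way. Of 45 such genes 39 were measured, 22 with a higher and 17 with a lower mean, with a median of 0.03, and 1 was at an unadjusted p under 0.05, beside 6.9% of all genes. Groups were apart for 1 lower and 1 higher gene (2.6% and 0.902% of all genes). The gene at an unadjusted p under 0.05, which was also the lower gene with groups apart, was Dhcr7, the last enzyme of cholesterol synthesis. It was 1.88, 1.26, 2.41 and 2.29 in WT and 0.85, 0.76, 0.95 and 1.25 in Glis3KO2. The groups were just apart, at WT replicate 2 and Glis3KO2 replicate 4, and the difference was -1 (SE 0.28, limma, unadjusted p = 0.00549, adjusted p = 0.697). Gab1, a docking protein of growth factor receptors, was 1.04 to 1.25 in WT and 1.29 to 2.09 in Glis3KO2, also apart, with a difference of 0.49 (SE 0.23, adjusted p = 0.697). Whether the shift of the 33 members differed from that of these 39 genes was not tested.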

How the data were processed

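Total RNA of Thy1-positive testis cells from 4 WT and 4 Glis3KO2 samples was amplified (1.5 µl of RNA in the NuGEN Ovation Pico WTA system), labelled with Cy3 (5 µg of cDNA) and hybridised to 1-colour Agilent mouse arrays, per the labels' protocols. Per the file headers, Agilent Feature Extraction 12.0.0.7 wrote the deposited scanner files, which hold intensities on a linear scale that the authors' software had background-subtracted. The deposited value table equalled the processed intensity on 100% of spots, is linear and not centred (column medians 67.2 to 143.6), and adds no other normalization.

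Intensities were taken as log2 and scaled by subtracting the 75th percentile of all spots of that array but the controls. Outlier spots (73 to 109 per array) were left out, spots of a probe were averaged, and no spot was saturated. Of 41174 probes, 28223 were named through a RefSeq accession in a gene table of GRCm38.p6, 0 matched several genes and 12951 stayed unnamed. Probes detected above background on 4 or more of 8 arrays were kept (36429), and the probe of highest mean stood for its gene. The number of arrays limits the precision. Genotypes were compared with limma 3.58.1 (R 4.3.3, lmFit and eBayes) on 17513 genes, with Benjamini-Hochberg adjustment and a threshold of 0.05. The members' rows were taken from that fit. Both the limma script and the correlation script were tested on simulated data.

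Correlations with the mean of 30 stroma or 28 germ cell markers used exact two-sided permutation tests for every gene. These ran over all 40320 pairings of 8 arrays, 720 of 6 arrays, or 576 of 8 arrays within genotypes (Python 3.11.15, SciPy 1.17.1, NumPy 2.4.6). Within genotypes on 6 arrays the pairings were fewer. The design named an adjustment over the members and both marker means. It was replaced by adjustment over all genes, since the members and all gene lists were chosen with earlier results of these data known. Genes set to be named were all members, Glis3, Thy1, 8 fixed cell type markers and up to 6 genes of smallest unadjusted p from each of the 3 other imprinting lists. Zfp57 and Dnmt3l were named besides, after their values were seen. Not described above were Nap1l4 (-0.38), Calcr (-0.39), Slc22a3 (1.26, dim), Htra3 (0.67), Ctcf (0.43), Tet2 (0.63), Prmt7 (-0.45) and Nsd1 (-0.2), as Glis3KO2 minus WT. Each had an adjusted p of 0.697 or more in limma. Same-numbered samples deviated together from their genotype means (r = 0.164, 0.339, 0.178 and 0.134 for replicates 1 to 4; among other numbers the highest were 0.143 for WT 3 with Glis3KO2 4 and 0.125 for WT 4 with Glis3KO2 3), so the replicate block is given where it moves a count. The labels do not say what a number stands for. Alternatives were other background corrections, quantile normalization, other filters, the mean over probes, slide and replicate blocks, array weights and leaving out arrays.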

Additional observations from a re-analysis of the deposited data

Results flagged for a closer look

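Among 66 groups of 4 arrays (33 members in each genotype), 3 held an array far from the other 3, where chance alone marks about 1 in 20 groups. Zim1 was -4.96 in WT replicate 1, against -3.77 to -3.61 on the other WT arrays, and that array was the one on which Zim1 was not well above background. Cdkn1c was 1.65 in Glis3KO2 replicate 2, against -0.75 to -0.59 on the other Glis3KO2 arrays. Kcnq1ot1 was -0.33 in WT replicate 3, against -0.03 to 0.02 on the other WT arrays.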

How the results depend on the processing

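No member reached an adjusted p under 0.05 in any setting run. Between genotypes 1 gene outside the list did, Gm16702, with quantile normalization (1 gene past the threshold, adjusted p = 0.0252 in limma). Genes at an unadjusted p under 0.05 (1208) numbered 1877 with the replicate block, 2531 with array weights and 770 without WT replicates 3 and 4, and 663 (without WT replicate 3) to 2408 (without WT replicate 2) when 1 array was left out. Members at an unadjusted p under 0.05 (3, beside 6.9% of all genes) numbered 7 with normexp and the 75th percentile (9.37%). They numbered 5 with normexp and quantile normalization (6.16%), 7 with the replicate block (10.7%) and 7 with array weights (14.5%). They numbered 1 without WT replicates 3 and 4 (4.4%) and 7 without number 2 of both genotypes (9.86%). Leaving out 1 array gave 1 member without WT replicate 1, 3 or 4 (8.31%, 3.79% and 4.82% of all genes). It gave 8 members without WT replicate 2 (13.7% of all genes). Members with groups apart (2) numbered 5 with normexp and the 75th percentile, 1 with normexp and quantile normalization and 1 with the mean over probes. They numbered 8 without number 2, and 2 to 7 when 1 array was left out. The share of all genes with groups apart was not counted in these settings, so these counts have no background. Groups of fewer arrays are also apart more often by chance. The members' median difference of 0.27 was 0.173 with normexp and the 75th percentile, 0.157 with normexp and quantile normalization and 0.165 with the mean over probes. It was 0.137 without WT replicates 3 and 4, and 0.232 to 0.395 when 1 array was left out. Normexp with the 75th percentile moved the median of all genes from -0.08 to -0.23, and the members' median lay 0.41 above it, against 0.35 in the main setting. The share of lower genes among those at an unadjusted p under 0.05 was 68.8%, and 57% with normexp and quantile normalization. Other imprinted genes at an unadjusted p under 0.05 (1) numbered 2 with normexp and the 75th percentile, 3 with normexp and quantile normalization, 4 with array weights, 2 without number 2, and 1 to 4 when 1 array was left out. Relations with germ cell markers (1, beside 938 of 17507 genes) numbered 5 with normexp and the 75th percentile (1224 genes). They numbered 3 with normexp and quantile normalization (1012 genes). Of those 5, 4 ran against the markers, where 0 did in the main setting. Relations with stroma markers (13, beside 4018 genes) numbered 5 without the 2 farthest arrays (1836 of 17509 genes). Over germ cell markers that setting leaves 4 arrays, which cannot reach 0.05, and was not counted. With normexp and the 75th percentile 10 members ran with the stroma markers and 1 against them, beside 1372 of 17507 genes in either direction. With the mean over probes 80 of 17508 genes and 0 members held against the stroma markers after adjustment over all genes. The cause of these changes was not tested.

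Signs turned for several members. With normexp and the 75th percentile these were Airn (-0.051), Usp29 (-0.33), Zim1 (-0.45), Phlda2 (-0.43), Snrpn (-0.22), Nap1l5 (-0.36), Ube3a (0.27) and Kcnk9 (0.21). With normexp and quantile normalization they were Ube3a (0.0536) and Kcnk9 (0.0023), with quantile normalization Cdkn1c (-0.022) and with the mean over probes Ube3a (0.15). With array weights they were Cdkn1c (-0.10), Snrpn (-0.042), Ube3a (0.073) and Kcnk9 (0.0296). Without WT replicates 3 and 4 they were Peg3 (-0.19), Usp29 (-0.023), Peg10 (0.19), Mest (-0.41), Cdkn1c (-0.38), Ndn (-0.076), Nap1l5 (-0.18) and Inpp5f (0.26). Without number 2 they were Cdkn1c (-0.19), Ube3a (0.0525) and Kcnk9 (0.11). Leaving out 1 array moved Usp29 from -0.34 to 0.47, Asb4 from -0.54 to 0.000596, Mest from -0.0782 to 0.58, Cdkn1c from -0.56 to 0.39, Snrpn from -0.19 to 0.41, Ube3a from -0.14 to 0.078, Kcnk9 from -0.17 to 0.0786 and Nap1l5 from -0.19 to 0.37. Both settings that leave out several arrays were chosen after seeing the data.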
